A study of Mus musculus with 4 samples.

Results

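The Arg1 Fn1 cells described here are myeloid cells of the mouse ovary with UMIs of both arginase 1 and fibronectin. A UMI is a molecular tag that counts 1 captured mRNA once. They were chosen from the raw UMIs of each cell: Arg1 at least 3, Fn1 at least 2, Lyz2 at least 10, S100a8 and S100a9 together under 20, and Cd209a at most 1. Of 6281 kept cells, 264 met this rule, and 8074 barcodes were deposited in all. A kept cell had at least 500 genes, at least 1000 gene UMIs, at most 10% mitochondrial UMIs, and a top hashtag of at least 10 counts and at least 3 times the second. The cells were CD45+CD11b+ cells sorted from ovaries of WT C57BL/6J mice, described as virgin, at 15 months and at 3 months of age. For each age, 3 suspensions were marked with an antibody hashtag (called pools here), joined, sorted and made into 1 droplet 3' library. Since each age is 1 library, an effect of age and 1 of the library cannot be told apart, and each p-value measures only the spread between pools of these libraries. The sources differ on the animals: the design text gives 2 mice for each pool, while the protocol gives 14 to 17 and 2 to 3 months and 1 older pool from a single mouse.

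Arginase 1 splits arginine into ornithine and urea, and it is a marker of alternatively activated macrophages and of tumour- and wound-associated monocytes. Monocytes leave the blood through the receptor Ccr2, which binds the chemokines Ccl2 and Ccl7, lose Ly6C in the tissue and can turn into macrophages with complement C1q and MHC class II. Fibronectin is a matrix protein that early monocyte-derived macrophages secrete, and in the ovary macrophages clear follicles and corpora lutea that regress.

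The share of members ran over a wide range within each age, and the ages overlapped. At 15 months there were 1 of 767, 86 of 2437 and 12 of 896 kept cells in pools 1, 2 and 3, shares of 0.13%, 3.53% and 1.34% (Wilson 95% intervals 0.0230 to 0.735%, 2.87 to 4.34% and 0.768 to 2.33%). At 3 months there were 89 of 725, 75 of 479 and 1 of 977, shares of 12.3%, 15.7% and 0.102% (intervals 10.1 to 14.9%, 12.7 to 19.2% and 0.0181 to 0.578%). Pools 1 and 2 of 3 months thus lay above every 15-month pool and pool 3 of 3 months lay below them all. Over pools the share averaged 1.67 ± 1.72% in the 15-month library and 9.35 ± 8.18% in the 3-month library (SD over 3 pools), a difference of -7.68 percentage points. The two-sided exact permutation p was 0.4, where 3 against 3 pools cannot go below 0.1. Intervals cover counting error only.

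**Figure D1:**
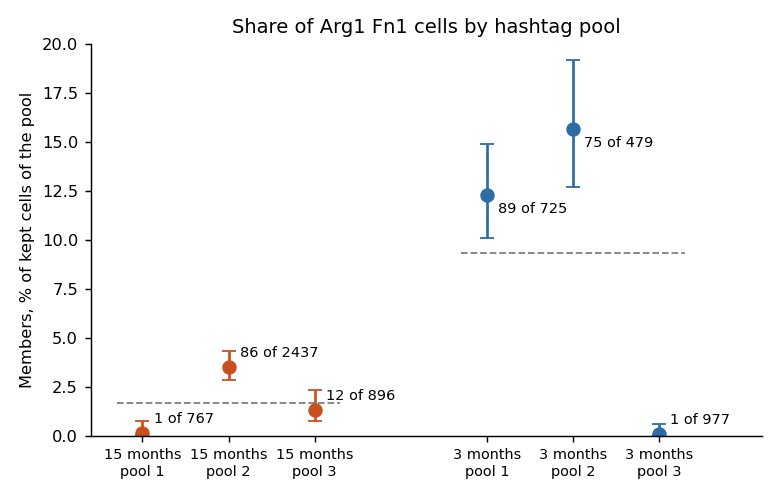
Share of kept cells that are Arg1 Fn1 cells (y axis, percent) in each hashtag pool (x axis). Points are pools, bars are Wilson 95% intervals, dashed lines are the mean of 3 pools; the 15-month pools reach at most 3.53%, and the 3-month pools are at 12.3%, 15.7% and 0.102%.

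In the 2 pools with a single member, all kept cells together held 13 Arg1 UMIs (15-month pool 1) and 15 (3-month pool 3). The member of 15-month pool 1 had 3 Arg1 UMIs, 26 Fn1 UMIs and 4 UMIs of the B cell gene Cd79a. It also held 76 Saa3, 17 Prg4 and 7 Timd4 UMIs, listed markers of cavity or resident macrophages, and it entered no test. The member of 3-month pool 3 had 3 Arg1 UMIs, 5 Fn1 UMIs and 58 Spp1 UMIs. Both lie at the limit of the rule, and with Arg1 at least 5 neither pool held a member, which allows a share of up to 0.391% in 15-month pool 1 and 0.307% in 3-month pool 3 (3 cells of the total), and by the Wilson upper limit a share of up to 0.498% and 0.392%. Of 442 T and NK cells, none had 3 or more Arg1 UMIs. In the other pools, 118 and 15 cells at 15 months and 115 and 96 cells at 3 months had at least 3 Arg1 UMIs.

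Near the limits, 12 members had 3 Arg1 UMIs and 6 had 4, while 19 cells that met all other limits had 2 and 31 had 1. Likewise 19 members had 2 Fn1 UMIs and 10 had 3, against 18 cells with 1 and 45 with 0 that failed only there. The Lyz2, S100 and Cd209a limits alone kept out 8, 2 and 3 cells. Members had a median of 24.5 Arg1 UMIs, from 3 to 205, and a median of 13 Fn1 UMIs, from 2 to 129. Their median depth was 12821 UMIs at 15 months and 10392 at 3 months. Of 3 barcodes found in both libraries, 2 were members in the 15-month library and none in the 3-month library.

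Ccl2, Ccl7 and Ccl9, the listed markers that the rule did not use, were present in the members. Each cell was thinned to the same number of UMIs, and cells below that depth were left out, 1 member of 15 months and 2 of 3 months. Ccl2 was then seen in 49.4% and 66.7% of members in 15-month pools 2 and 3. In 3-month pools 1 and 2 it was seen in 91.0% and 67.1%. Unthinned, the shares were 58.1% and 83.3% at 15 months, against 95.5% and 77.3% at 3 months. Of 442 T and NK cells, 95 were deep enough to be thinned, 68 at 15 months and 27 at 3 months. In these, taken as the background, Ccl2 was seen in 2.94% (2 cells) at 15 months and 3.7% (1 cell) at 3 months. Ccl7 was seen in 29.4% and 33.3% of thinned members at 15 months, and in 83.1% and 49.3% at 3 months. Ccl9 was seen in 83.3% to 93.3% in the 4 pools. The shares of Ccl2 and Ccl7 were thus highest in 3-month pool 1, while Ccl9 was seen in most members of each of the 4 pools. Median depth before thinning was 11180 UMIs in members and 3670 in T and NK cells.

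Of the inflammatory cytokines, Il1b was well measured and Tnf and Il6 were low. Il1b, the interleukin-1 beta gene, stood at 991 and 1298 CPM (counts per 1e6 UMIs of the summed members) in 15-month pools 2 and 3, and at 453.4 and 912.6 CPM in 3-month pools 1 and 2. Tnf stood at 45.9 and 16.2 CPM at 15 months, against 45.5 and 41.5 CPM at 3 months. Il6 stood at 1.29 and 0 CPM at 15 months, against 1.79 and 2.51 CPM at 3 months. The levels of Tnf overlapped between the ages and those of Il1b did not, though Il1b did not pass the age test given below. Il6 had 2 and 0 UMIs at 15 months and 2 and 2 UMIs at 3 months, too few to compare the ages. The monocyte receptor Ccr2 stood at 270.2 and 581.9 CPM at 15 months and at 276.7 and 453.8 CPM at 3 months, and the monocyte surface gene Ly6c2 at 57.5 and 199.3 CPM at 15 months and at 235.6 and 148.3 CPM at 3 months. Ccr2 was seen in 63.5% and 75% of thinned members at 15 months and in 58.4% and 74.0% at 3 months, against 29.4% and 59.3% of T and NK cells. Ly6c2 was seen in 28.2% and 33.3% of members at 15 months and in 50.6% and 32.9% at 3 months, against 32.4% and 25.9% of T and NK cells. Ccr2 in 3-month pool 1 and Ly6c2 in 15-month pool 2 were thus not above the T and NK cells, and Ly6c2 in 15-month pool 3 was close to them. Whether the T and NK cells make Ccr2 and Ly6c2 themselves was not tested, so their shares may not measure background for these genes. Macrophage genes stood beside them, with the lipid carrier Apoe seen in 100% of thinned members of both 15-month pools and in 85.4% and 89.0% at 3 months (57.4% and 37.0% of T and NK cells). Trem2, a lipid receptor, was seen in 78.8% and 100% at 15 months and in 71.9% and 80.8% at 3 months, against 1.47% and 0% of T and NK cells. Among the resident and cavity macrophage markers, Lyve1, Timd4, Gata6 and Prg4 were seen in no thinned member of these 4 pools. Folr2, a folate receptor of resident macrophages, was seen in 4.71% and 0% at 15 months and in 2.25% and 8.22% at 3 months (0% and 3.7% of T and NK cells), and Saa3, a serum amyloid gene, in 1.18% and 0% at 15 months and in 0% and 2.74% at 3 months.

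Markers of other cells were detected at low summed levels, with some sets higher in 1 age. The summed level of 11 neutrophil genes was 64.6 and 37.7 CPM in members at 15 months and 33.0 and 52.8 CPM at 3 months, with Ngp, Camp and Ly6g at 0. The 12 T and NK cell genes summed to 80.2 and 10.8 CPM at 15 months and 1.79 and 33.9 CPM at 3 months, with Gzmb and Ncr1 at 0. The 11 dendritic cell genes summed to 70.5 and 32.3 CPM at 15 months, against 80.3 and 61.6 CPM at 3 months. The 8 epithelium and mesothelium genes summed to 51.7 and 5.39 CPM at 15 months and to 0 and 0 CPM at 3 months, with Upk3b, Msln and Upk1b at 0; the part of such cells in the age results was not tested. The sets of B cells, red blood cells and steroid-making cells were apart by age too, and their values stand with the age results. Scrublet called 1 cell a doublet in each library, which is under 0.5%, so doublets inside a pool were not removed by it.

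Members were set beside 3 other gates of the same pools: a Ly6c2 gate (Ly6c2 at least 5, Ccr2 at least 1 and Lyz2 at least 10, with Arg1 and C1qa at 0), an Spp1 gate (Spp1, Fabp5 and Lyz2 at least 10 each) and a C1q gate (C1qa and C1qb at least 5, Arg1 0, Spp1 under 10). All had S100a8 and S100a9 under 20 together, and the Ly6c2 gate also had Cd209a at most 1. Members were left out of each gate, and a cell that met the Spp1 gate was counted only there. The gates held 156, 169 and 1811 cells, and pools with at least 10 cells in both gates were used. These are descriptions with no test, since the gates were cut from the same cells. A gene counts as different when its log2 ratio within a pool, on the scale of CPM plus 10, passed 2-fold in every pool.

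Against Ly6c2-high cells, members had lipid-handling genes of macrophages at higher levels and much of the blood monocyte set at lower ones. C1q genes were higher too, but the gate held only cells with no C1qa UMI. Of 3088 genes at 50 CPM or more, 108 were higher (3.5%) and 125 lower (4.05%) in members in all 4 pools. Of 18 lipid-associated macrophage genes, 14 were higher and none lower. Spp1 and Fabp5 are among the 14, and cells with at least 10 UMIs of each were taken out of the Ly6c2 gate. Spp1, osteopontin, stood at 3505, 1832, 10870 and 8037 CPM in members and at 193.2, 83.9, 9.13 and 69.7 CPM in the Ly6c2 gate (15-month pools 2 and 3, then 3-month pools 1 and 2). Cd63, a lysosomal tetraspanin, averaged 794.7 CPM in members and 17.5 CPM in the gate, a mean log2 ratio of 4.88. Fabp4, a fatty acid carrier, averaged 265.5 and 2.22 CPM (4.31), and Gdf15, a stress cytokine, 252.0 and 0.635 CPM (4.54). The complement gene C1qc averaged 1120 CPM in members and 12.1 CPM in the gate (5.71), and Pf4, a platelet-type chemokine that macrophages also make, 1089 and 26.4 CPM (5.27).

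Lower in members were 10 of 18 classical monocyte genes, with none higher. Plac8 stood at 185.5, 70.0, 419.4 and 198.6 CPM in members and at 4288, 4176, 6068 and 4821 CPM in the Ly6c2 gate, so the gates were far apart in each pool. Hp, haptoglobin, averaged 81.8 CPM in members and 950.5 CPM in the gate (-3.73). Of 12 interferon response genes with enough UMIs, 6 were lower and none higher. Of 19 immediate early genes, a common trace of dissociation, 1 was lower and none higher. Ly6c2 and Lyz2 are among the 10, and both cut the cells compared.

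Against the Spp1 gate, members were higher in a few monocyte genes and lower in a few lysosome and lipid genes. Of 2863 genes, 18 were higher (0.629%) and 27 lower (0.943%) in members in all 3 pools with enough cells, which were 15-month pools 2 and 3 and 3-month pool 2. Of 14 classical monocyte genes, 4 were higher and none lower. Ccr2 stood at 270.2, 581.9 and 453.8 CPM in members and at 67.2, 65.8 and 18.4 CPM in the Spp1 gate. Il1b averaged 1067 and 143.6 CPM (mean log2 ratio 3.40), Tgfbi, a matrix protein made by monocytes, 866.4 and 131.7 CPM (2.74), and Thbs1, thrombospondin 1, 740.9 and 173.9 CPM (2.13). Members were lower in 4 of 18 lipid-associated genes, with Fabp5, which cut the gate, among them, and in 2 of 21 lysosome genes, with none higher in either list. Gpnmb, a lysosomal glycoprotein of lipid-loaded macrophages, stood at 24.6, 32.3 and 289.1 CPM in members and at 1922, 1425 and 1363 CPM in the Spp1 gate. Atp6v0d2, a subunit of the lysosomal proton pump, stood at 18.8, 0 and 133.3 CPM in members and at 342.3, 197.3 and 750.9 CPM in the gate.

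Against the C1q gate, members carried a matrix, coagulation and wound repair set. Of 2961 genes, 25 were higher (0.844%) and 37 lower (1.25%) in all 4 pools. Of 19 genes of that list, 8 were higher and none lower, Fn1 and Spp1, which cut the gates, among them. F10, coagulation factor X, stood at 156.4, 59.3, 478.3 and 375.9 CPM in members and at 37.6, 5.07, 2.49 and 17.3 CPM in the C1q gate. Adam8, a membrane protease, averaged 224.0 and 26.6 CPM (mean log2 ratio 2.63), and Thbs1 727.5 and 128.3 CPM (2.51). Ccl9 averaged 1011 and 210.7 CPM (2.18). Chil3, a chitinase-like protein of alternative activation, averaged 398.4 and 18.5 CPM (3.77), and Ccl24, an eosinophil chemokine, 857.9 and 20.7 CPM (3.86). Members were lower in the chemokine Ccl4 (310.5 and 1724 CPM, -2.61), the adhesion molecule Vcam1 (50.6 and 257.7 CPM, -2.59), the immediate early factor Egr1 (125.4 and 721.5 CPM, -2.48) and the lectin Mgl2 (95.7 and 494.9 CPM, -2.15). In the C1q gate 4 of 6 fibroblast genes with enough UMIs were higher too, and the part of other cells' RNA in these ratios was not tested.

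**Figure D2:**
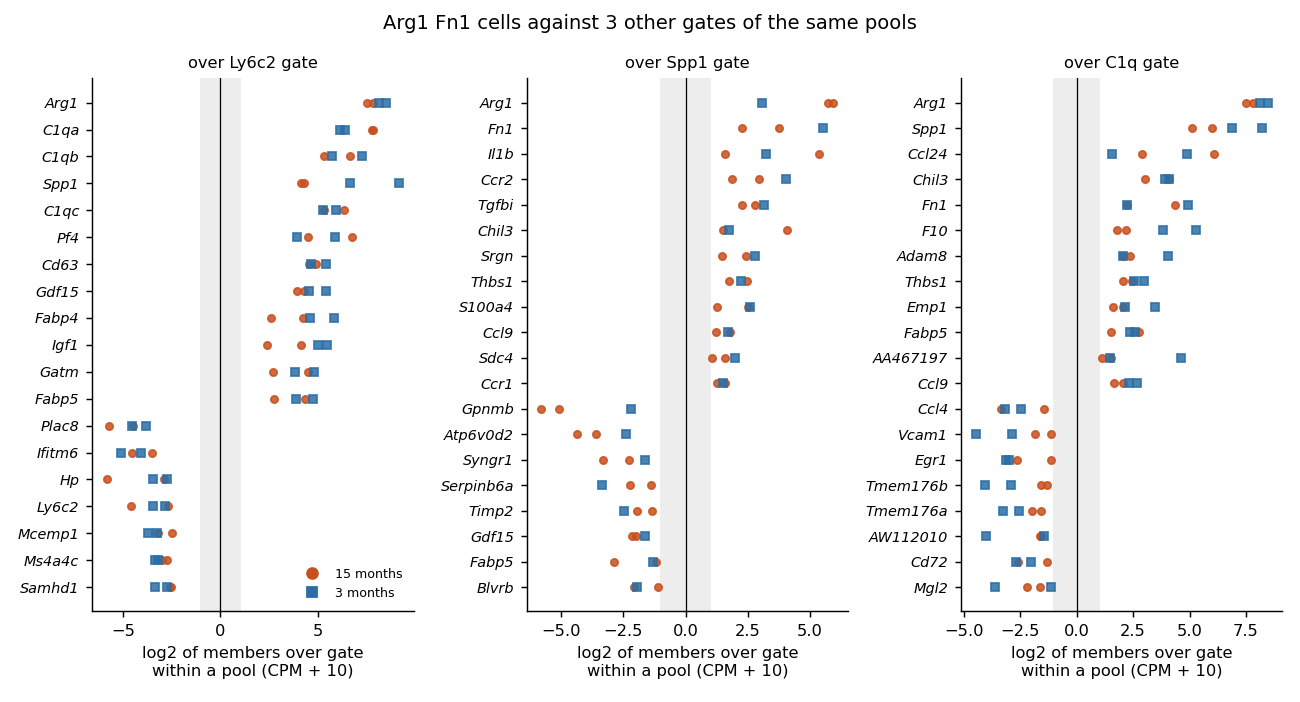
Log2 ratio of members over each gate within a pool (x axis, CPM plus 10) for genes that the naming rule picked and that are reported here (y axis). Circles are 15-month pools and squares 3-month pools, the grey band is less than 2-fold; Plac8 and Hp lie left of the band against the Ly6c2 gate, Ccr2 and Il1b right of it against the Spp1 gate.

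Age was tested inside the members with edgeR's quasi-likelihood test on UMIs summed per pool, over 15-month pools 2 and 3 (1546946 and 185606 UMIs, 86 and 12 cells) and 3-month pools 1 and 2 (1120529 and 795495 UMIs, 89 and 75 cells). The other pools had 1 member each and were left out. Of 6960 genes, 198 passed an adjusted p of 0.05 (2.84%), 101 higher (1.45%) and 97 lower (1.39%) at 15 months. Arg1 and Lyz2, genes of the rule, are among the 97. Among the genes that fell were Ccl2, Ccl7 and Ccl9 and genes of the lipid-associated and lysosome lists, and among those that rose were C1q, MHC class II and resident macrophage genes. Scaling by library size in place of TMM gave 135 higher and 66 lower, with a median log2 ratio over all genes of 0.17 in place of 0.01. The calls rest on few pools: without 3-month pool 2 a single gene, Ccl2, passed, without 15-month pool 3 487 passed, and the calls that could be tested again (197 and 198) kept their direction. The prior degrees of freedom, which set how far each gene's spread is drawn to the common one, were 8.05 with all 4 pools, 4.56 without 3-month pool 2 and 28.5 without 15-month pool 3.

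Ccl2 and Ccl7, ligands of Ccr2, fell in the older members. Ccl2 stood at 495.8 and 657.3 CPM at 15 months and at 7701 and 4757 CPM at 3 months, and fell by 3.62 ± 0.23 on the log2 scale (SE, edgeR adjusted p = 8.46e-05). The SE, here and below, is the absolute log2 ratio divided by the square root of edgeR's F statistic. It is thus worked back from the test. Ccl7 stood at 155.8 and 425.6 CPM at 15 months and at 5988 and 3454 CPM at 3 months, and fell by 4.35 ± 0.42 (edgeR adjusted p = 0.00134). The ages did not overlap in either gene. With 2 pools for each age, a lack of overlap is common by chance. Throughout, it is a description, and the share over all genes is not given. Both lie on chromosome 11 of GRCm38, Ccl2 at chr11:82035571-82037453 and Ccl7 at chr11:82045712-82047525, on the plus strand. In single cells, the median of Ccl2 was 97.9 and 132.8 CPM at 15 months and 4358 and 779.7 CPM at 3 months. The tenth of cells with most Ccl2 held 67.7% and 42.6% of it at 15 months, and 36.6% and 57.0% at 3 months, so a few cells carried a large part in each pool.

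Ccl9, a chemokine of the receptor Ccr1, stood at 782.8 and 738.1 CPM at 15 months and at 1263 and 1262 CPM at 3 months, and fell by 0.89 ± 0.15 (edgeR adjusted p = 0.0146). Of 17 chemokine genes, 3 rose and 3 fell, with a median log2 ratio of -0.36 against 0.01 over all genes. The 3 that fell are Ccl2, Ccl7 and Ccl9. Ccl8, a further chemokine gene of chromosome 11 (chr11:82115185-82116799), rose: it stood at 231.4 and 21.6 CPM at 15 months and at 3.57 and 8.80 CPM at 3 months (log2 ratio 4.59 ± 0.80, edgeR adjusted p = 0.0154). The 15-month pools held 358 and 4 UMIs of it, and the call was lost with DESeq2 and without 15-month pool 2. Pf4 stood at 2424 and 1083 CPM at 15 months and at 277.5 and 572.0 CPM at 3 months, a rise of 1.92 ± 0.39 that did not pass with DESeq2 or with Arg1 at least 2. The ages were apart in each of these. Cxcl2, which draws neutrophils, stood at 2522 and 1358 CPM at 15 months and at 2809 and 3172 CPM at 3 months (adjusted p = 0.141, edgeR). Ccl24 was uneven between pools of 1 age, at 2517 and 86.2 CPM at 15 months and at 694.3 and 134.5 CPM at 3 months (edgeR adjusted p = 0.452), and its ratio turned to -2.45 without 15-month pool 2.

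Of 18 genes of lipid-loaded macrophages, 8 were lower and none higher at 15 months, with a median of -0.86. Spp1 stood at 3505 and 1832 CPM at 15 months and at 10870 and 8037 CPM at 3 months (fell by 1.97 ± 0.27, edgeR adjusted p = 0.00729). Lgals3, galectin 3, stood at 2973 and 3173 CPM at 15 months and at 10140 and 10220 CPM at 3 months (fell by 1.89 ± 0.10, edgeR adjusted p = 3.62e-05). The ages were apart in both genes. Gpnmb stood at 24.6 and 32.3 CPM at 15 months and at 153.5 and 289.1 CPM at 3 months, and Cd36, a scavenger receptor for oxidized lipid, at 221.1 and 264.0 CPM at 15 months and at 857.6 and 720.3 CPM at 3 months. Apoe did not pass, at 15180 and 12310 CPM at 15 months and 4651 and 9799 CPM at 3 months (log2 ratio 0.77 ± 0.27, edgeR adjusted p = 0.172). Of 22 lysosome genes, 5 fell and 1 rose. Atp6v0d2 stood at 18.8 and 0 CPM at 15 months and at 123.2 and 133.3 CPM at 3 months, and Ctsk, cathepsin K, the collagen-cutting protease of osteoclasts, at 5.17 and 10.8 CPM at 15 months and at 42.8 and 42.7 CPM at 3 months. The call of Atp6v0d2 was lost with DESeq2 and that of Ctsk without 15-month pool 2. Ctsc, cathepsin C, rose, at 1008 and 829.7 CPM at 15 months and 267.7 and 407.3 CPM at 3 months.

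Promoter windows of genes that fell (Spp1, Gpnmb, Ccl9) and of 1 that rose (H2-Aa) are shown to set genes of both directions side by side; each covers 250 bases before to 50 bases after the start, from RefSeq (GRCm38.p6), 5′ to 3′ on the gene's strand. Capitals mark matches, on either strand, to the motifs AP-1 (TGANTCA), E-box (CANGTG), RUNX (TGTGGT) and CCAAT. The windows lie at chr5:104434861-104435160 for Spp1 (plus strand), chr6:49036268-49036567 for Gpnmb (plus strand), chr11:83578587-83578886 for Ccl9 (minus strand), chr17:34287774-34288073 for H2-Aa (minus strand).
Spp1: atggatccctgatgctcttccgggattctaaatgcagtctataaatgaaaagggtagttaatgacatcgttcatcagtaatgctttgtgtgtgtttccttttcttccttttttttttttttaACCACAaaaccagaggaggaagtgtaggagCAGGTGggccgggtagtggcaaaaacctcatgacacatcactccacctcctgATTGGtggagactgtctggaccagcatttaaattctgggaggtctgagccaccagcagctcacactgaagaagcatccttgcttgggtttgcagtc
Gpnmb: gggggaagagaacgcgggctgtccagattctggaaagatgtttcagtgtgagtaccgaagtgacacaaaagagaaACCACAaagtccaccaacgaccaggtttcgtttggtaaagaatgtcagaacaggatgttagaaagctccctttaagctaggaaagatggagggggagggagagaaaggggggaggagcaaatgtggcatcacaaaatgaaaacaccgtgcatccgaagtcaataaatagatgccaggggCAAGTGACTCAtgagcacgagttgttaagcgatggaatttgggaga
Ccl9: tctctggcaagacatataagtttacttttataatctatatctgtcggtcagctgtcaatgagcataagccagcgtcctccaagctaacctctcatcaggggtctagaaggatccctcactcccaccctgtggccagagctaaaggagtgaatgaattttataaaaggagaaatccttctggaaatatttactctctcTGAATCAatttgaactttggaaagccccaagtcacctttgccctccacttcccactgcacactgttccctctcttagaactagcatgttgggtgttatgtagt
H2-Aa: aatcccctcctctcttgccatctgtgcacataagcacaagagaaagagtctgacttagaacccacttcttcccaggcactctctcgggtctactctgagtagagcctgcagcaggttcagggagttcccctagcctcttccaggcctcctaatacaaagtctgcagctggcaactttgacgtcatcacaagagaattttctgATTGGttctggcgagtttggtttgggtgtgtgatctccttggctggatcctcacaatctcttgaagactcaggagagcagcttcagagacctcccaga
Over all 32851 windows of this length, 7.81% held AP-1, 44.9% the E-box, 16.8% RUNX and 37.4% CCAAT. AP-1 matched in Gpnmb and Ccl9, RUNX in Spp1 and Gpnmb, the E-box in Spp1 and Gpnmb, and CCAAT in Spp1 and H2-Aa; in Gpnmb the E-box and AP-1 matches overlap. A match is a description of letters, not a site.

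Of 16 macrophage maturation genes, 7 were higher and 1 lower at 15 months, with a median of 0.66. C1qa stood at 2180 and 2263 CPM at 15 months and at 833.5 and 683.9 CPM at 3 months (log2 ratio 1.38 ± 0.15, edgeR adjusted p = 0.00255). C1qb stood at 3030 and 3448 CPM at 15 months and at 1475 and 1534 CPM at 3 months (0.94 ± 0.13), and Aif1, an actin-binding protein of macrophages, at 811.3 and 878.2 CPM at 15 months and at 174.9 and 300.4 CPM at 3 months (1.67 ± 0.25). No pool of one age overlapped the other. The background moved the same way for C1qa: it was seen in 33.8% of thinned T and NK cells at 15 months and 14.8% at 3 months, against 70.6% and 83.3% of members at 15 months and 34.8% and 45.2% at 3 months, and its part in the rise was not tested.

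Of 8 resident macrophage genes tested, 4 rose and none fell, with a median of 1.56. Mrc1, the mannose receptor, stood at 512.6 and 495.7 CPM at 15 months and at 166.9 and 75.4 CPM at 3 months (log2 ratio 1.88 ± 0.31, edgeR adjusted p = 0.0132). It was seen in 64.7% and 83.3% of thinned members at 15 months and in 29.2% and 21.9% at 3 months, and in no T or NK cell. Selenop, a selenium carrier, stood at 669.7 and 716.6 CPM at 15 months and at 111.6 and 237.6 CPM at 3 months (1.84 ± 0.30). Gas6, the ligand of the clearance receptor Mertk, stood at 57.5 and 53.9 CPM at 15 months and at 15.2 and 8.80 CPM at 3 months (2.03 ± 0.37), a call lost with DESeq2, with the stricter cell filter and without 15-month pool 2. The defining resident genes Lyve1 and Timd4 were seen in no thinned member of the 4 pools tested.

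MHC class II genes, which present peptides to CD4 T cells, rose in 3 of 7 genes tested, with all 7 positive and a median of 1.17. H2-Aa stood at 2908 and 5178 CPM at 15 months and at 1237 and 1776 CPM at 3 months (1.25 ± 0.25, edgeR adjusted p = 0.0265), H2-Eb1 at 2373 and 3804 CPM at 15 months and at 1025 and 1405 CPM at 3 months (1.17 ± 0.22). H2-Ab1 stood at 2581 and 4994 CPM at 15 months and at 1192 and 1717 CPM at 3 months (1.20 ± 0.27), a call lost with DESeq2, with its size factors, with the stricter cell, hashtag and level filters, with Arg1 at least 2 and without 3-month pool 2. Its median over single members was 1255 and 5676 CPM at 15 months and 90.1 and 471.6 CPM at 3 months. H2-Ab1 was seen in 50% of thinned T and NK cells at 15 months and in 44.4% at 3 months, and B cell genes, whose cells make MHC class II, summed to 168.1 and 113.1 CPM in members at 15 months and to 19.6 and 28.9 CPM at 3 months; the part of either was not tested. In MHC class I, 1 of 12 rose, H2-Q7, at 142.2 and 80.8 CPM at 15 months and 26.8 and 27.7 CPM at 3 months, a call lost without 15-month pool 2.

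**Figure D3:**
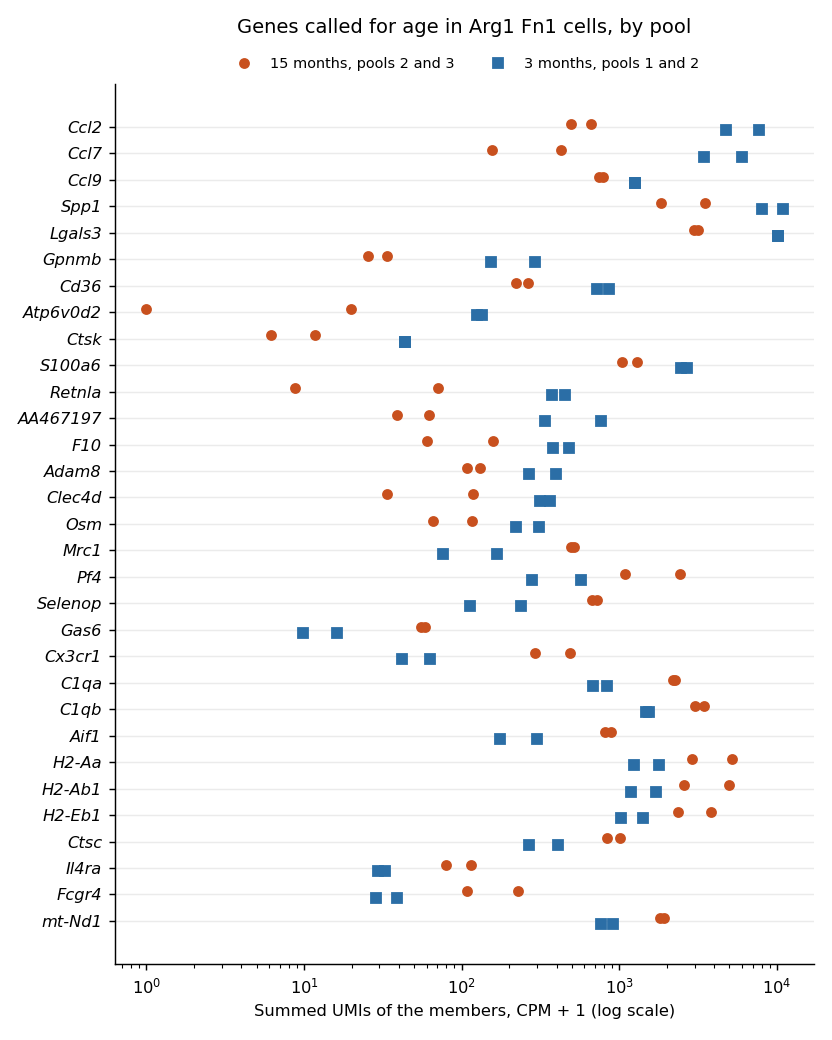
CPM plus 1 of the summed members (x axis, log scale) for named genes that passed the age test (y axis). Circles are 15-month pools 2 and 3 and squares 3-month pools 1 and 2; Ccl2 sits at 495.8 and 657.3 CPM at 15 months, left of 7701 and 4757 CPM at 3 months, and C1qa at 2180 and 2263 CPM, right of 833.5 and 683.9 CPM.

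Matrix, coagulation and wound repair genes were split, with 5 of 21 lower and 2 higher. F10 stood at 156.4 and 59.3 CPM at 15 months and at 478.3 and 375.9 CPM at 3 months (fell by 1.92 ± 0.32, edgeR adjusted p = 0.0134; not past the threshold with DESeq2), and Adam8 at 129.3 and 107.8 CPM at 15 months and at 393.6 and 265.2 CPM at 3 months (fell by 1.58 ± 0.25). Tgfbi stood at 1025 and 942.9 CPM at 15 months and at 561.3 and 631.1 CPM at 3 months and did not pass (edgeR adjusted p = 0.113). The genes of the rule are given as levels only. Fn1 stood at 1529 and 1142 CPM at 15 months and at 1108 and 1301 CPM at 3 months, and Arg1 at 2245 and 1816 CPM at 15 months and at 3539 and 2792 CPM at 3 months. Lyz2, lysozyme, stood at 7138 and 6605 CPM at 15 months and at 12170 and 12950 CPM at 3 months. The levels overlapped between ages for Fn1 and did not for Arg1 and Lyz2.

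Of 14 arginine and polyamine genes, none rose, and the only one outside the rule that fell was Slc7a2, an arginine transporter at 3.88 and 0 CPM at 15 months and 23.2 and 22.6 CPM at 3 months. Its call was lost without 15-month pool 2 and without either 3-month pool. Of 11 alternative activation genes, with Arg1 of the rule among them, Mrc1 and Il4ra rose and Retnla fell. Retnla, a secreted protein induced by IL-4, stood at 7.76 and 70.0 CPM at 15 months and at 449.8 and 373.4 CPM at 3 months (fell by 4.67 ± 0.61, edgeR adjusted p = 0.00586), a call lost with DESeq2. It came from few cells: 3.49% and 16.7% of members at 15 months and 7.87% and 9.33% at 3 months had a UMI, and 1 cell held 287 of 504 UMIs in 3-month pool 1. Il4ra, the receptor chain for IL-4, stood at 78.2 and 113.1 CPM at 15 months and at 28.6 and 31.4 CPM at 3 months (1.41 ± 0.30, edgeR adjusted p = 0.0372), a call lost with DESeq2 and without 3-month pool 1. Chil3 stood at 1058 and 237.1 CPM at 15 months and at 140.1 and 158.4 CPM at 3 months and did not pass (edgeR adjusted p = 0.0605).

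Of 20 inflammatory cytokine and NF-kB genes, 3 fell and 1 rose. Osm, the cytokine oncostatin M, stood at 115.7 and 64.7 CPM at 15 months and at 220.4 and 309.2 CPM at 3 months, and Clec4d, a lectin that senses microbes, at 117.0 and 32.3 CPM at 15 months and at 364.1 and 313.0 CPM at 3 months, a call lost with DESeq2. Il10, an anti-inflammatory cytokine, stood at 18.8 and 10.8 CPM at 15 months and at 1.79 and 0 CPM at 3 months (edgeR adjusted p = 0.0373), a low level in each pool and a call lost without 3-month pool 1. Il1b did not pass (log2 ratio 0.57 ± 0.28, edgeR adjusted p = 0.332), and its thinned shares were uneven, at 81.2% and 50% of members at 15 months and 30.3% and 39.7% at 3 months. In the receptor list 3 of 15 rose and none fell, Csf1r, the receptor of the macrophage growth factor CSF1, among them (a call lost in 7 of the alternatives) at 434.4 and 571.1 CPM at 15 months and 238.3 and 245.1 CPM at 3 months. Cx3cr1, the fractalkine receptor, stood at 289.0 and 484.9 CPM at 15 months and at 41.1 and 61.6 CPM at 3 months (2.70 ± 0.30, edgeR adjusted p = 0.00255). In thinned T and NK cells Cx3cr1 was seen in 26.5% at 15 months and 3.7% at 3 months. Among thinned members it was seen in 56.5% and 75% at 15 months and in 18% and 23.3% at 3 months. Whether the T and NK cells made it themselves or held it as background was not tested, nor was its part in the rise.

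All 13 mitochondrially encoded genes had positive ratios and 7 rose, with a median of 0.72. The gene mt-Nd1, a subunit of complex I, stood at 1926 and 1810 CPM at 15 months and at 767.5 and 911.4 CPM at 3 months (0.99 ± 0.16, edgeR adjusted p = 0.0115). The median mitochondrial share of a member was 2.3% and 2.36% at 15 months and 1.36% and 1.52% at 3 months, and over all kept cells it was 2.48%, 2.31% and 2.71% in the 15-month pools and 1.71%, 1.93% and 2.04% in the 3-month pools. The share was higher at 15 months in members and in all kept cells, and its part in the members' result was not tested. No heat shock, cell cycle, hypoxia and glycolysis or ATF4 gene passed, out of 11, 13, 22 and 9. Of 12 p53 targets, 2 fell: Bax, which opens the mitochondrial membrane, at 412.4 and 447.2 CPM at 15 months and 780.9 and 873.7 CPM at 3 months, and Phlda3 at 14.9 and 5.39 CPM at 15 months and 50 and 83.0 CPM at 3 months. Cdkn1a, p21, stood at 361.4 and 835.1 CPM at 15 months and at 753.2 and 927.7 CPM at 3 months (edgeR adjusted p = 0.265).

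**Figure D4:**
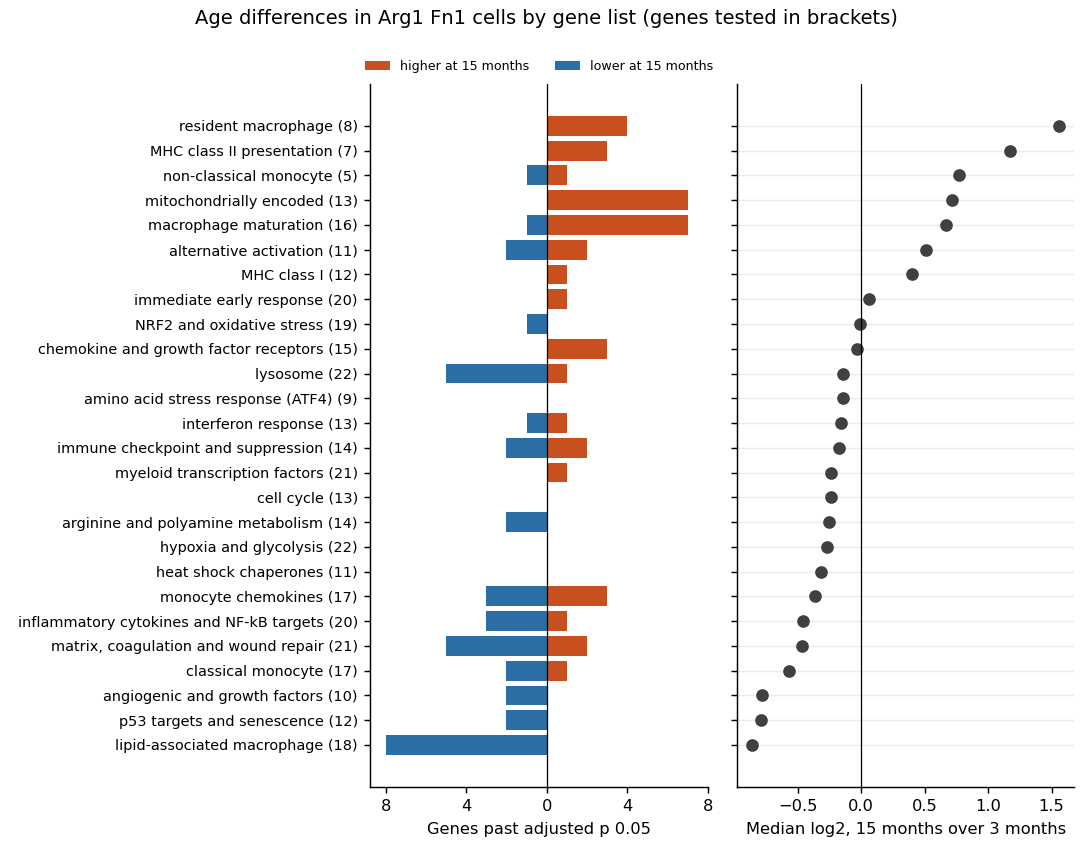
Left, number of genes of each list past adjusted p 0.05 (x axis; right of 0 higher, left of 0 lower at 15 months). Right, median log2 ratio of the list's tested genes, 15 months over 3 months; the lipid-associated list has 8 lower genes and a median of -0.86, the resident macrophage list 4 higher genes and 1.56, and over all genes the median is 0.01.

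Genes of other cells were among the calls. Red blood cell genes summed to 22.6 and 0 CPM in members at 15 months and to 401.6 and 1234 CPM at 3 months, and 4 of 7 fell, Hbb-bs, Hba-a1 and Hba-a2 with them. In 3-month pool 2, 1 cell held 326 of the 560 Hbb-bs UMIs. Hbb-bs was seen in 8.24% and 0% of thinned members at 15 months and in 75.3% and 80.8% at 3 months, close to the 7.35% and 77.8% of T and NK cells of the same libraries. B cell genes summed to 168.1 and 113.1 CPM at 15 months and to 19.6 and 28.9 CPM at 3 months, with both genes tested, of 10, higher, and Jchain at 0. Steroid-making cell genes summed to 682.0 and 43.1 CPM at 15 months and to 18.7 and 11.3 CPM at 3 months. Of 681 Cyp11a1 UMIs in 15-month pool 2, 634 lay in 1 cell, and without members of 50 or more Cyp11a1 UMIs this gene was no longer called while 204 genes were. The part of these cells' RNA in other calls was not tested.

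The members with fewer than 5 UMIs of C1qa, C1qb and C1qc together, 22 and 3 at 15 months and 49 and 33 at 3 months, were looked at after the results were seen, as values with no test; the 3 cells of 15-month pool 3 were left out. Ccl2 stood at 610.2 CPM in the older pool 2 and at 11300 and 6822 CPM at 3 months, and Spp1 at 1769 CPM, against 10250 and 7423 CPM. H2-Ab1 stood at 2002 CPM, against 600.6 and 1019 CPM, and Mrc1 at 289.7 CPM, against 80.4 and 70.2 CPM. Ccl2 and Spp1 were thus lower and H2-Ab1 and Mrc1 higher in the older pool 2. The chemokine gene Pf4 was higher there too, at 1571 CPM against 131.1 and 982.2 CPM at 3 months. Vcam1, which rose over all members but not without 15-month pool 2, stood at 13.2 CPM in the older pool 2 and at 6.34 and 23.4 CPM at 3 months in this subset.

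Whether the age difference of members differed from that of other gates was tested as an interaction in edgeR with the pool as a block. Against the Ly6c2 gate 15 of 5992 genes passed (0.25%), and 384 had an unadjusted p under 0.05. Ccl2 stood at 522.3 and 271.5 CPM at 15 months and at 383.3 and 650.5 CPM at 3 months in the Ly6c2 gate, and the members' age log2 ratio minus that gate's was -3.34 (edgeR adjusted p = 0.000785). For Ccl7, at 96.6 and 29.6 CPM at 15 months and 9.13 and 11.6 CPM at 3 months in the gate, it was -7.48, which rests on 1 Ccl7 UMI in each 3-month pool of the gate. The members' ratio lay below that of the gate in Ccl2. Over the 4 pools tested, MHC class II genes rose more in the Ly6c2 gate than in members. In the gate H2-Aa stood at 3048 and 2621 CPM at 15 months and at 45.6 and 104.5 CPM at 3 months. The difference was -4.15. That for H2-Eb1 was -5.36, with 3 and 1 UMIs of it in the 3-month pools of the gate. Those 3-month pools held 16 and 12 gate cells. In pools outside the test, H2-Aa in the gate stood at 8975 CPM in 3-month pool 3 (4 cells). It stood at 1181 CPM in 15-month pool 1 (12 cells). Without 1 pool the count ran from 8 (3-month pool 1 left out) to 41 (15-month pool 3 left out), and it was 30 without 3-month pool 2.

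Against the C1q gate 44 of 8795 genes passed (0.5%), and 862 had an unadjusted p under 0.05. Lyz2, a gene of the rule, and C1qa are among the 44. C1qa in that gate stood at 4752 and 4346 CPM at 15 months and at 5057 and 4333 CPM at 3 months. C1qa cut this gate, so its call is not used here. Lgals3 stood at 1334 and 1864 CPM at 15 months and at 1273 and 2548 CPM at 3 months in the gate, and the members' ratio minus the gate's was -1.73. For Gpnmb, at 55.5 and 49.4 CPM at 15 months and 16.2 and 60.6 CPM at 3 months in the gate, it was -3.91, and for Vcam1, at 345.2 and 144.1 CPM at 15 months and 412.4 and 128.8 CPM at 3 months, it was 3.33. The older members were thus lower in Lgals3 and Gpnmb, relative to the C1q gate, by this test. With a mean of at least 50 CPM 11 genes passed, and without 1 pool the count ran from 67 (15-month pool 2) to 306 (3-month pool 2), and it was 74 and 111 without 3-month pool 1 and 15-month pool 3.

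**Figure D5:**
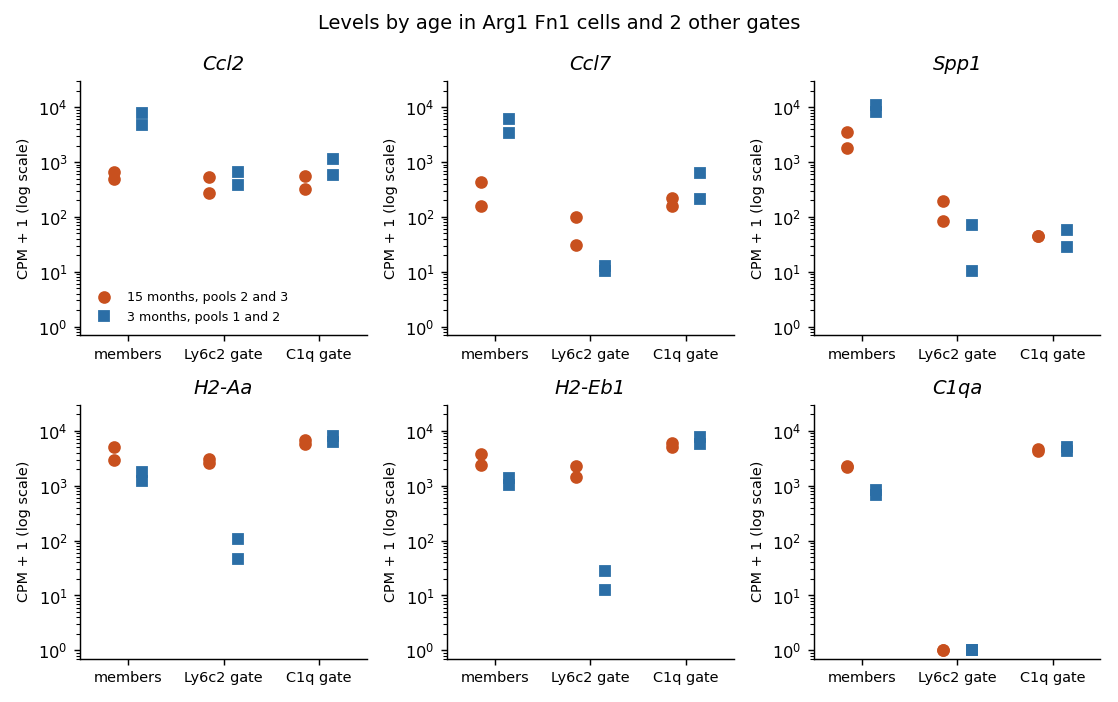
CPM plus 1 (y axis, log scale) of 6 genes in members, the Ly6c2 gate and the C1q gate (x axis). Circles are 15-month pools 2 and 3, squares 3-month pools 1 and 2; Ccl2 is widely apart by age in members and overlaps between ages in the Ly6c2 gate, and H2-Aa is set apart most in the Ly6c2 gate. C1qa is 0 in the Ly6c2 gate by its rule.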

How the data were processed

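The deposited counts are whole UMI counts per gene and hashtag counts per barcode, in 1 filtered 10x matrix for each age, with no normalization by the authors, per the file headers. Cell Ranger 7.0.0, FastQC 0.11.4 and mm10 are named per the submitters' processing notes; the header of the matrices names another Cell Ranger version, so the version is open. Kept cells, members and gates were cut as the report states. UMIs were summed per pool (6 pools; 10758 to 1546946 member UMIs) and pools with at least 10 members were tested with edgeR 4.0.16 (filterByExpr, TMM, glmQLFit, glmQLFTest, R 4.3.3) with Benjamini-Hochberg adjustment over all genes tested and a threshold of 0.05. The test was also run on simulated counts, and the outcome is not reported here. Alternatives were DESeq2 1.42.0, its size factors, other filters and limits, and each pool left out. Other steps used Python 3.11.15, numpy 2.4.6, scipy 1.17.1, pandas 2.3.3, scanpy 1.11.5 (scrublet) and matplotlib 3.10.9.

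The members, lists, gates and tests were chosen with earlier results of these data known. Named genes are the genes of the rule and the listed markers, up to 8 genes with the widest rise and 8 with the widest fall with age (mean of at least 50 CPM, no overlap between ages), the 3 genes of each list with the highest level and the 3 with the smallest p, up to 12 higher and 8 lower genes for each gate (at least 200 CPM in the higher gate), and up to 4 interaction genes in each direction. Doublets called by scrublet were left out only as an alternative. Some results that this rule picks are not reported here.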

Additional observations from a re-analysis of the deposited data

Results flagged for a closer look

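The age difference of members differed from that of the Ly6c2 gate in 15 genes and from that of the C1q gate in 44 by edgeR's interaction test; those the naming rule picks are given here. Values are the members' log2 ratio, 15 months over 3 months, minus that of the gate. Against the Ly6c2 gate it was 2.25 for Pou2f2, a B cell and myeloid transcription factor, -7.48 for Ccl7, -5.36 for H2-Eb1, -4.69 for AA467197, -4.15 for H2-Aa, -3.34 for Ccl2 and -1.69 for Ccl9. Against the C1q gate it was 6.17 for Cyp11a1, a steroid enzyme, 4.13 for Cd38, an enzyme that consumes NAD, 3.72 for Igfbp4, 3.33 for Vcam1, -7.67 for Chil3, -3.91 for Gpnmb, -3.05 for Plac8 and -2.92 for Gdf3. Chil3 was at 0 in both 3-month pools of the C1q gate, so its value depends on the prior count. Chil3, Plac8 and Gdf3 passed the age test neither in members nor in that gate. Cd38, Igfbp4 and Vcam1 were low in members of 3-month pools 1 and 2. They stood at 2.68 and 7.54 CPM, 7.14 and 2.51 CPM, and 8.92 and 8.80 CPM, so their values rest on few UMIs. The values of Ccl7, AA467197 and H2-Eb1 are held by few UMIs in the 3-month pools of the Ly6c2 gate: 1 and 1, 0 and 3, and 3 and 1 (pools 1 and 2). Of the Cyp11a1 UMIs of 15-month pool 2, 634 of 681 lay in 1 member. Of the named interaction genes, 13 passed again with DESeq2's size factors in edgeR and 2 did not. With a mean of at least 50 CPM, 10 passed again and 5 did not.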

How the results depend on the processing

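The share difference of -7.68 points ran from -12.3 to -4.52 when 1 pool was left out. No alternative could pass, since 3 against 3 pools or fewer cannot go below an exact permutation p of 0.1. With the pool number as a replicate block the exact permutation p was 0.5. Of the calls for age, 198 in all, edgeR gave 314 with Arg1 at least 5, 542 with no filter on low counts, 92 with DESeq2 (1350 genes with no adjusted p), and 1 to 487 when 1 pool was left out. Calls that were tested again kept their direction under every alternative run, the 61 named genes past the threshold included. Of these, 34 passed in every alternative other than the one without 3-month pool 2, and of the 34 Ccl2 passed there too. Arg1 and Lyz2, genes of the rule, are among the 61, and Lyz2 is among the 34, so for these the counts are a description only. Ccl24, which was not past the threshold, ran from -2.45, a reversal, without 15-month pool 2 to 3.17 without 3-month pool 1. The cause was not tested. The interaction count of 15 against the Ly6c2 gate ran from 8 to 41 with 1 pool left out. That of 44 against the C1q gate was 11 when only genes averaging 50 CPM or more were fitted, and ran from 67 to 306 with 1 pool left out. The alternatives without scrublet doublets and with at least 5 members in a pool kept the same members and pools. Their age calls were thus fixed in advance and add no support. The alternative of at least 20 members in a pool was not run, since 1 pool of 15 months is left. No paired analysis was possible for the genes because the 4 pools share only pool number 2. With a left-out pool, the lone pool of that age is assumed to vary like the others. The counts given for such fits thus do not show how many of the calls hold. In the age fit with no filter, the age fit without 3-month pool 1 and the Ly6c2 interaction without 15-month pool 3, edgeR's prior degrees of freedom were infinite, so each gene was given the common spread and its own was not used, and these counts (542, 225 and 41) say nothing of genes that vary between pools. The prior degrees of freedom were 8.05 in the age fit reported; leaving out 15-month pool 3 gave 28.5, and leaving out 3-month pool 2 gave 4.56. Depth limits low genes most in 15-month pool 3, with 185606 member UMIs.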
